A study of Mus musculus with 20 samples.

Results

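Chemokines and their receptors were followed in mouse tibiae that were mechanically loaded or left unloaded under dexamethasone or vehicle. They were taken as every row of the count table whose gene symbol begins with Ccl, Cxcl, Ccr or Cxcr followed by a digit, which gave 55 of 54446 genes. Of these, 37 had at least 10 counts in at least 5 of the 20 libraries and are described. All mice were C57BL/6J males aged 3 months. They received subcutaneous water (vehicle) or dexamethasone (DEX, a synthetic glucocorticoid) at 1 mg/kg for 5 days. The left tibia was loaded along its axis in 40 cycles per session at -13 N, held for 0.1 s with 10 s of rest, to about 1300 microstrain. The labels place loading on days 1 and 3. The published methods describe a further weekly session and freezing within hours of the last one, so the number of sessions and the time from loading to sampling are uncertain. The tibia of the other side was not loaded. This gave 4 groups of 5 libraries, named Vehicle_Ctrl, Vehicle_Load, DEX_Ctrl and DEX_Load. Frozen bone tissue was pulverized. The labels name the tibia and the publication speaks of cortical bone with periosteum, and whether marrow was removed is not stated. In bulk bone of this kind, fewer cells of a type and less RNA per cell cannot be told apart. The labels do not say whether the libraries of a group come from separate mice, while the publication counts its replicates in mice.

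Chemokines are small secreted proteins that guide migrating cells along concentration gradients, and their receptors couple to inhibitory G proteins on the surface of those cells. In bone marrow, stromal cells make Cxcl12, which holds stem cells, lymphoid progenitors and neutrophils in place through Cxcr4, while Cxcr2 on mature neutrophils favours their exit. Ccr2 with its ligands Ccl2 and Ccl7 draws monocytes out of the marrow into blood. Glucocorticoids are known to damp the transcription of many inflammatory chemokines and to change the traffic of leukocytes.

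The 250 bases before the RefSeq start of 5 members (GRCm38.p6) are printed because they were the most abundant members with an entry that passed the test under DEX in at least 1 tibia: the receptors Cxcr2, Ccr1 and Ccr2, which were higher, and the ligand Cxcl14 and the receptor Ccr3, which were lower. Ccl8, Ccl27a and Ccl28 also passed but were scarcer, and their sequences are not shown. Capitals mark matches to the letters searched on both strands. The motifs were the hexamer AGAACA that glucocorticoid receptors bind, the full glucocorticoid response element (the hexamer, any 3 bases and its reverse complement, so that each full element also holds the hexamer), a kappaB site (GGG, any 2 bases and TTTCC), an AP-1 site TGANTCA, a PU.1 site GAGGAAGT and a C/EBP site TTGCNNAA. Each sequence is written 5′ to 3′ on the strand of its gene.
Cxcr2, chr1:74153744-74153993, plus strand: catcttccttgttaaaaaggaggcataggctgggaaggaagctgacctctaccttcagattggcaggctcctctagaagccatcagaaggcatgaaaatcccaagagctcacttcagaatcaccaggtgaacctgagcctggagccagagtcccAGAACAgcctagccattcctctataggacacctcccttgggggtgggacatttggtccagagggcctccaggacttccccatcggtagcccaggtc
Ccr1, chr9:123968693-123968942, minus strand: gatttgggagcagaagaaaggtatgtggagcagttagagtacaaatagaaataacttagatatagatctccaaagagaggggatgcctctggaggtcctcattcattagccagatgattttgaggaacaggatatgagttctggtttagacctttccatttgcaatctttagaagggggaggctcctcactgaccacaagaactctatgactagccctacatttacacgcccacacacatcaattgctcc
Ccr2, chr9:124101933-124102182, plus strand: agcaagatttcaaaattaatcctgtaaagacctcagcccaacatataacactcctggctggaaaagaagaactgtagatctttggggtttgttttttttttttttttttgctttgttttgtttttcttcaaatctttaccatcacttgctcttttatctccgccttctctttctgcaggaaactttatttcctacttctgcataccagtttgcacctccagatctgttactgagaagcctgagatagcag
Cxcl14, chr13:56296552-56296801, minus strand: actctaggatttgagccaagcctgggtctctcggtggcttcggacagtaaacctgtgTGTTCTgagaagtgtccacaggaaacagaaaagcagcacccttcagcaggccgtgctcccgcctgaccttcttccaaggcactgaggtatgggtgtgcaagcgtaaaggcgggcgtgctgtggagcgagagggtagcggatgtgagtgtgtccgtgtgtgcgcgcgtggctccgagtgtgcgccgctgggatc
Ccr3, chr9:124021721-124021970, plus strand: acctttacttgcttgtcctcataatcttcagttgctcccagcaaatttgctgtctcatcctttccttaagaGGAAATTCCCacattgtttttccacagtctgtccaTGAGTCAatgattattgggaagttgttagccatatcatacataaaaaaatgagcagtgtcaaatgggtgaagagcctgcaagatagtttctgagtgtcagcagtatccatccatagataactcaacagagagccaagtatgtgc

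Promoter sequence was given for 27 of the 37 described members, and Cxcl16 has no entry. The full glucocorticoid element was matched in none of the 27 and in 0.00922% of all 32536 promoters of this length. The hexamer stood in 6 of the 27, at -96 to -91 from the start of Cxcr2 and, as its reverse complement, at -193 to -188 in Cxcl14, against 16.0% of all promoters. Cxcr4, Cxcr1, Cxcl9 and Ccl22 held the others. The kappaB letters were found in Ccl9, Ccr3, Cxcl1 and Cxcl3 (1.4% of all promoters), and in Ccr3 at -179 to -170. The AP-1 letters were found in 5 members (6.73% of all promoters), among them Ccr3 at -144 to -138. Ccr1 and Ccr2 held none of the 6 motifs in this window. The PU.1 letters were found in Cxcr3 (2.45% of all promoters), and the C/EBP letters in Ccl21a and Ccl27a (9.57%).

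Library totals ran from 4641437 to 13032018 counts. DEX_Ctrl replicate 4 was left out of all tests. Its median Spearman correlation with its own group was 0.651, the highest of all libraries. DEX_Load replicate 4 had the lowest total and the lowest such correlation of all libraries (0.416). With DEX_Load replicate 4 left out in its place, 7 of 31 members tested were called for DEX in loaded tibiae. Ccl27a and Cxcl14 lost their calls and Ccr2 gained one. The share of all genes called in that fit is not given, so the count describes the members only. Reads over 1965 olfactory and vomeronasal receptor genes, which bone is not known to use, served as a measure of background. Their summed level ran from 261 to 932 CPM (counts relative to TMM-scaled library size) in Vehicle_Load and from 391 to 1364 CPM in Vehicle_Ctrl. It was 800.4 to 2918 CPM in the tested DEX_Ctrl libraries and 1097 to 6494 CPM in DEX_Load, with the maximum in DEX_Load replicate 4. As a check of the treatment, Fkbp5 and Zbtb16 were higher with DEX in loaded tibiae (log2 fold changes 0.87 and 1.01) among 5 glucocorticoid-induced genes. In unloaded tibiae none of the 5 rose (Fkbp5 0.81, adjusted p = 0.0603) and Sgk1 fell by 0.63 on the log2 scale. The labelled tissue carried its markers, since all 10 osteoblast and osteocyte genes were detected in every group. Of these 10, 9 fell with DEX in loaded and 6 in unloaded tibiae. None of 6 skeletal muscle markers passed, with medians of 0.49 in loaded and -1.84 in unloaded tibiae.

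Compared per kilobase of exon over the 19 tested libraries, Cxcl12 stood first with 122 ± 28.3 CPM per kb (SD). Cxcl12 alone took 50.1% to 74.9% of all counts of the members in each of these libraries. Ccl6, a CC ligand made by myeloid cells, followed with 46.6 ± 13.9 CPM per kb, and Cxcl14, a ligand of epithelial and stromal cells, with 33.8 ± 11.2. The most abundant receptors were Cxcr4 (27.5 ± 6.57 CPM per kb), Cxcr2 (18.8 ± 8.73), Ccr1 (11.4 ± 3.96) and Ccr2 (11.2 ± 2.85). Ccr1, Ccr2 and the ligand Ccl9 (10.7 ± 2.39) did not differ beyond their spread. The lowest library of Cxcl12 (63.6 CPM per kb) lay above the highest of every other member except Ccl6 (76.1). The 13 members from Cxcr3 (1.01 CPM per kb) down to Cxcl11 (0.297) had means at or under the highest background level of any library, 1.09 CPM per kb.

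**Figure D1:**
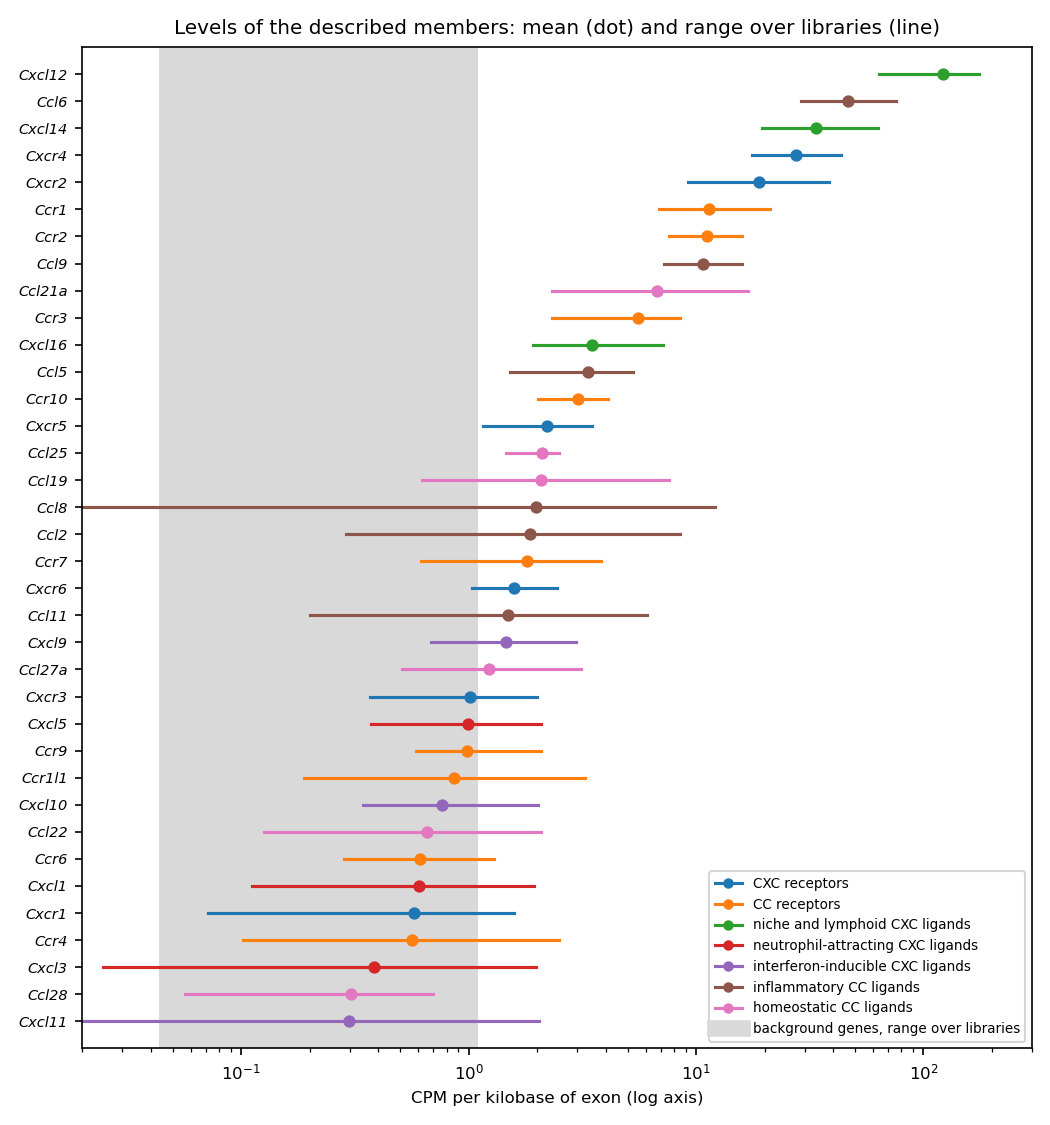
Level of the described members that are reported, in CPM per kilobase of exon (log axis), with the mean over 19 libraries as a dot, the lowest to highest library as a line and the role as colour. The grey band is the range of the background genes over all 20 libraries (0.0439 to 1.09 CPM per kb), and 13 members have means inside it; lines of Ccl8 and Cxcl11 reach 0 and are cut at the axis.

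The other 18 members stayed below the count minimum. They include ligands often induced in inflammation: Ccl3 had at most 5 counts in any library, Ccl4 at most 7, Ccl12 at most 5 and Ccl20 at most 5. Cxcl2, a Cxcr2 ligand, reached 17 counts, and Cxcl13, the ligand of Cxcr5, reached 11. Ccl26 and Ccl27b were at 0 in every library, where 3 counts would have been the limit that a count of 0 allows. By role, 10 of 11 CC receptors and all 6 CXC receptors were described. This compares with 6 of 14 inflammatory CC ligands, 6 of 9 homeostatic CC ligands, and 3 of 5 neutrophil-attracting, 3 of 3 interferon-inducible and 3 of 5 niche and lymphoid CXC ligands. The remaining 2 members are Ccl19 pseudogenes. Reads of Ccl19 and its pseudogenes, of Ccl21a and Ccl21b and of Ccl27a and Ccl27b could be split between near-identical copies, so their levels are uncertain.

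The first comparison asked how DEX changed the members in unloaded tibiae. With edgeR, 3 of 31 members tested passed (9.68%), against 6.84% of 19738 genes. The all-gene count rested on 1 library, falling from 1351 to 129 without DEX_Ctrl replicate 3, where 2 of the 3 members were called. All 3 were receptors of myeloid cells and were higher, Cxcr2, Ccr1 and Ccr2, where 2.86% of all genes were called higher. No member fell past the threshold, where 3.99% of all genes did. DESeq2 called 5 of the 31, adding Cxcr4 and Cxcl16, against 12.0% of all genes. In loaded tibiae, 8 of 31 members tested passed (25.8%), against 21.3% of 19780 genes. Of these, 4 were higher (Cxcr2, Ccr1, Ccl27a and Ccl28) and 4 were lower (Ccr3, Cxcl14, Cxcl16 and Ccl8), where 12.9% and 8.35% of all genes were called higher and lower. Ccl28 and Ccl8 passed the filter on low counts mainly through the group where each was high, so the share of members is not read against that of all genes. The all-gene count fell from 4206 to 2696 without the unnumbered Vehicle_Load library, where 5 members were called. DESeq2 called 9 of the 31, adding Ccr2, against 28.6% of all genes. Cxcr2 and Ccr1 were called in both tibiae. Groups that did not overlap were found for 4 members in unloaded tibiae, all higher with DEX (4.45% of all genes higher, 6.4% lower). Cxcl1, among these 4, reached 10 counts in no Vehicle_Ctrl library and so passed the filter on low counts through the group where it was high. In loaded tibiae they were found for 2 higher and 2 lower members (7.66% and 8.85% of all genes). The median log2 fold change of the members tested was 0.08 in unloaded and 0.28 in loaded tibiae, against 0.03 and 0.00 over all genes tested.

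**Figure D2:**
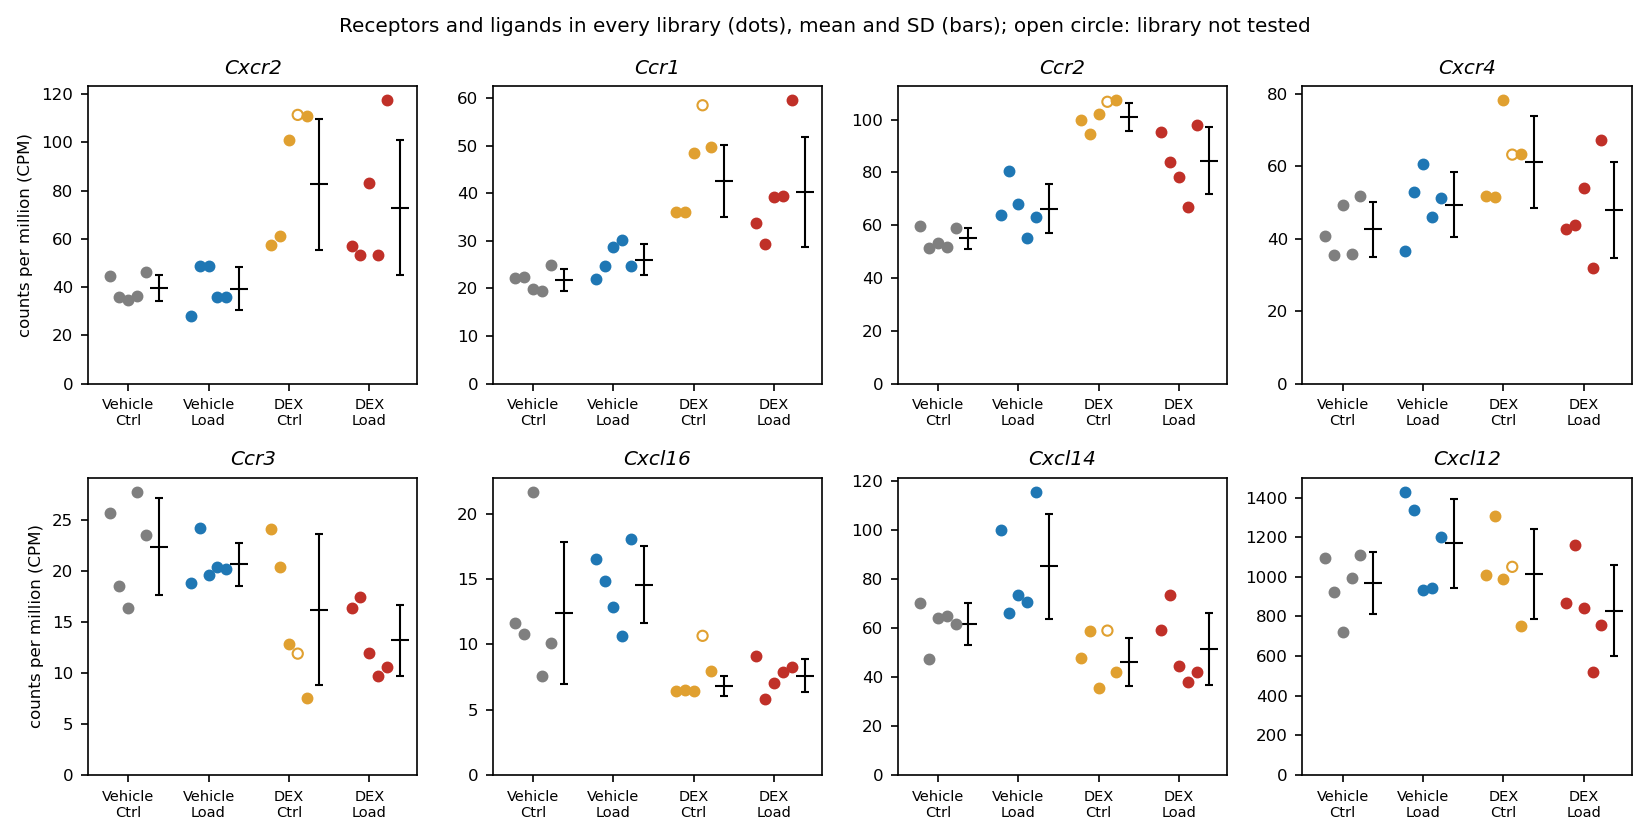
CPM (vertical axes, from 0) of 8 members in every library, by group, with the mean and SD of the tested libraries as black bars. DEX_Ctrl replicate 4, the open circle, was not tested. Cxcr2, Ccr1 and Ccr2 lie higher in both DEX groups than in their vehicle groups by mean, while Ccr3, Cxcl16 and Cxcl14 lie lower.

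Cxcr2, the receptor for the neutrophil-attracting ligands, had 34.6, 36.0, 36.2, 44.4 and 46.2 CPM in Vehicle_Ctrl and 57.7, 61.4, 101 and 111 CPM in DEX_Ctrl. In loaded tibiae the values were 28.1, 35.7, 35.7, 48.7 and 48.9 CPM with vehicle and 53.3, 53.4, 57.0, 83.2 and 118 CPM with DEX. In both tibiae every DEX library lay above every vehicle library, and the DEX libraries were spread more widely. The log2 fold change was 1.10 (SE 0.212, adjusted p = 0.0150) in unloaded and 0.93 (SE 0.236, adjusted p = 0.0177) in loaded tibiae. The call in unloaded tibiae was lost without DEX_Ctrl replicate 3 (0.99, adjusted p = 0.0711). That in loaded tibiae was lost without Vehicle_Load replicate 1 (0.80, adjusted p = 0.0522) or without the unnumbered library of that group (0.86, adjusted p = 0.0526). Neutrophil marker genes moved with it: 8 of 10 rose in unloaded and 9 of 10 in loaded tibiae, with medians of 1.05 and 1.06 on the log2 scale. Their summed level was 4996 to 7237 CPM in Vehicle_Ctrl, 4286 to 6338 in Vehicle_Load, 9074 to 16373 in DEX_Ctrl and 7256 to 17307 in DEX_Load. Their part in the rise of Cxcr2 was not tested.

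The ligands of Cxcr2 with a Cxcl symbol were scarce. Ligands under other symbols, such as Ppbp, are not covered here. Cxcl1 had 0.209 to 1.03 CPM in Vehicle_Ctrl and 1.21 to 1.69 CPM in DEX_Ctrl. Those groups did not overlap, yet its difference did not pass.

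Ccr1, a receptor of monocytes and neutrophils for ligands such as Ccl3 and Ccl5, had 19.4, 19.8, 22.1, 22.5 and 25.0 CPM in Vehicle_Ctrl and 36.1, 36.2, 48.5 and 49.8 CPM in DEX_Ctrl. In loaded tibiae it had 21.9, 24.7, 24.8, 28.7 and 30.1 CPM with vehicle and 29.3, 33.8, 39.2, 39.4 and 59.6 CPM with DEX. The unloaded groups were separate, and in loaded tibiae 1 DEX library lay within the vehicle range. The log2 fold change was 0.99 (SE 0.153, adjusted p = 0.00796) in unloaded and 0.67 (SE 0.183, adjusted p = 0.0233) in loaded tibiae. The loaded call was lost without Vehicle_Load replicate 1 (adjusted p = 0.0683), without replicate 2 (adjusted p = 0.0623) or without the unnumbered library (adjusted p = 0.0674).

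Ccr2, the receptor that brings monocytes into blood, had the smallest SE of the 3 receptors called in unloaded tibiae. Its levels were 51.5, 51.8, 53.2, 59.0 and 59.7 CPM in Vehicle_Ctrl and 94.7, 99.999, 102 and 107 CPM in DEX_Ctrl. No library of one group reached the other, and the log2 fold change was 0.90 (SE 0.108, adjusted p = 0.00386). In loaded tibiae it had 55.4, 63.1, 63.9, 68.0 and 80.7 CPM with vehicle and 66.9, 78.2, 83.9, 95.4 and 97.8 CPM with DEX. These ranges overlapped, and the log2 fold change of 0.40 (SE 0.135) did not pass with edgeR (adjusted p = 0.0520), while DESeq2 called it (adjusted p = 0.0181). Of 10 edgeR fits that left out 1 library, only that without DEX_Load replicate 4 called it (adjusted p = 0.0259), and the other 9 gave adjusted p-values from 0.0605 to 0.167. Its ligand Ccl2 gave -0.47 (SE 0.555, adjusted p = 0.629) in unloaded and -1.51 (SE 0.639, adjusted p = 0.105) in loaded tibiae. Gm17268 overlaps Ccl2 on the opposite strand. The DEX effect on Ccr2 differed between tibiae by -0.54 on the log2 scale (SE 0.182), which did not pass (adjusted p = 0.364).

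Among 9 monocyte and macrophage markers, Ly6c2 and Lyz2 rose in unloaded tibiae (1.21 and 1.05 on the log2 scale), while the list median was 0.07 and 4 of the 9 were below 0. In loaded tibiae Ly6c2 rose by 0.79 while Adgre1, Cd68 and C1qc, genes of tissue macrophages, fell by 0.63, 0.57 and 0.60, with a list median of -0.44. The summed level of the 9 was 858 to 1729 CPM in Vehicle_Ctrl, 1423 to 1786 in Vehicle_Load, 1894 to 2868 in DEX_Ctrl and 922 to 2474 in DEX_Load. The part of such cells in the levels of Ccr1 and Ccr2 was not tested.

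With log2 background reads added as a covariate in unloaded tibiae, Ccr1, Ccr2 and Cxcr2 had adjusted p-values of 0.00478, 0.00370 and 0.00846. That fit called more genes in general, 2657 of 19738 against 1351 without the covariate. In loaded tibiae the background ranges of the groups did not overlap, so background and DEX cannot be told apart there. The same covariate left none of the members and 31 of all 19780 genes called.

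Cxcr4, the receptor of Cxcl12 on marrow leukocytes, had 35.5, 35.7, 40.8, 49.2 and 51.9 CPM in Vehicle_Ctrl and 51.6, 51.7, 63.3 and 78.3 CPM in DEX_Ctrl. The highest vehicle library lay among the DEX libraries, and the log2 fold change of 0.54 (SE 0.169) did not pass with edgeR (adjusted p = 0.0741) but did with DESeq2 (adjusted p = 0.0397). Without the unnumbered Vehicle_Ctrl library edgeR called it too (adjusted p = 0.0434). In loaded tibiae it was 0.00 (SE 0.187, adjusted p = 0.995), with a 95% interval from -0.36 to 0.37. The difference between tibiae, -0.57 (SE 0.276), did not pass (adjusted p = 0.414).

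Cxcl12 itself had 723, 923, 992, 1093 and 1111 CPM in Vehicle_Ctrl and 749.5, 991, 1008 and 1308 CPM in DEX_Ctrl. In loaded tibiae it had 936, 946, 1200.2, 1339 and 1430 CPM with vehicle and 520.3, 755, 843, 869 and 1159 CPM with DEX. Both pairs of groups overlapped. The log2 fold change was 0.08 (SE 0.194, adjusted p = 0.838) in unloaded and -0.46 (SE 0.218, adjusted p = 0.146) in loaded tibiae. None of 6 marrow stromal markers passed in either tibia, with medians of -0.06 and -0.36.

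Ccr3, the eotaxin receptor of eosinophils, had 18.9, 19.6, 20.2, 20.4 and 24.2 CPM in Vehicle_Load and 9.76, 10.6, 12.0, 16.4 and 17.4 CPM in DEX_Load. Every loaded DEX library lay below every loaded vehicle library. It fell by 0.60 on the log2 scale (SE 0.166, adjusted p = 0.0250), and the call was lost without DEX_Load replicate 3 (adjusted p = 0.0552). In unloaded tibiae it had 16.4, 18.6, 23.5, 25.7 and 27.8 CPM with vehicle and 7.59, 12.8, 20.4 and 24.1 CPM with DEX, ranges that overlapped (-0.47, SE 0.276, adjusted p = 0.319). Eosinophil markers moved with it in part. In loaded tibiae 3 of 5 fell (Prg2, Epx and Ear1), where 8.35% of all genes did, with a list median of -1.03. In unloaded tibiae only Epx fell, where 3.99% of all genes did, with a list median of -0.69. Siglecf, another of the 5, did not fall (0.02 in loaded and 0.14 in unloaded tibiae, neither passing). Their summed level was 256 to 369 CPM in Vehicle_Ctrl, 198 to 428 in Vehicle_Load, 129 to 263 in DEX_Ctrl and 67.2 to 213 in DEX_Load. Their part in the fall of Ccr3 was not tested.

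Cxcl16, a membrane-anchored ligand that recruits Cxcr6-bearing lymphocytes, had 10.6, 12.9, 14.8, 16.5 and 18.0 CPM in Vehicle_Load and 5.78, 7.05, 7.87, 8.23 and 9.13 CPM in DEX_Load. The loaded groups did not overlap. It fell by 0.90 on the log2 scale (SE 0.179, adjusted p = 0.00764) and kept its call in each of 10 fits that left out 1 library. In unloaded tibiae it had 7.60, 10.1, 10.8, 11.7 and 21.7 CPM with vehicle and 6.39, 6.42, 6.53 and 7.96 CPM with DEX. The lowest vehicle library lay within the DEX range. The change of -0.84 (SE 0.270) did not pass with edgeR (adjusted p = 0.0831) and did with DESeq2 (adjusted p = 0.0415). The library left out of the tests, DEX_Ctrl replicate 4, had 10.6 CPM. Zmynd15 overlaps Cxcl16 on the opposite strand.

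Cxcl14 had 66.2, 70.5, 73.3, 99.8 and 116 CPM in Vehicle_Load and 38.1, 41.9, 44.7, 59.0 and 73.4 CPM in DEX_Load. The highest DEX library lay among the vehicle libraries. It fell by 0.68 on the log2 scale (SE 0.201, adjusted p = 0.0306). This call was lost without DEX_Load replicate 3, 4 or 5, without Vehicle_Load replicate 1 or without the unnumbered library, with adjusted p-values from 0.0579 to 0.0678. In unloaded tibiae it had 47.3, 61.6, 64.2, 65.0 and 70.1 CPM with vehicle and 35.5, 42.2, 47.6 and 58.6 CPM with DEX (-0.41, SE 0.156, adjusted p = 0.133).

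The loaded falls depended on scaling. With library totals in place of TMM, which put the median of all genes at 0.28 in loaded and 0.32 in unloaded tibiae (0.00 and 0.03 with TMM), Ccr3, Cxcl14, Cxcl16 and Ccl8 kept their direction but had adjusted p-values of 0.145, 0.0960, 0.0528 and 0.0777. The split of loaded calls went from 4 higher and 4 lower to 6 higher and 0 lower.

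Ccl8, a monocyte-attracting ligand, passed the count minimum almost wholly through Vehicle_Load, which held 4 of its 5 libraries with 10 counts. It had 1.13, 1.37, 1.81, 1.81 and 6.20 CPM there and 0.134, 0.325, 0.490, 0.534 and 1.42 CPM in DEX_Load. The ranges overlapped by a single DEX library, and it fell by 2.07 on the log2 scale (SE 0.645, adjusted p = 0.0382). Without Vehicle_Load replicate 1, the library with 6.20 CPM, the change was -1.42 (adjusted p = 0.116). The call was also lost without DEX_Load replicate 1, 2, 3 or 5 or without the unnumbered vehicle library, with adjusted p-values from 0.0512 to 0.0785.

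Ccl28, a mucosal ligand, had 0.273, 0.604, 0.626, 0.905 and 0.977 CPM in Vehicle_Load and 1.37, 2.01, 2.71, 3.15 and 3.21 CPM in DEX_Load. These groups did not overlap, and the log2 fold change was 1.91 (SE 0.444, adjusted p = 0.0135), kept in each of 10 fits that left out 1 library. It reached 10 counts in 1 of 5 Vehicle_Load and 5 of 5 DEX_Load libraries, so it passed the filter on low counts through the group where it was high and had to differ there. Ccl27a, a skin-homing ligand, had 1.21, 1.56, 1.94, 2.01 and 3.13 CPM in Vehicle_Load and 2.38, 2.65, 3.74, 5.64 and 7.40 CPM in DEX_Load. The ranges overlapped, and the change of 1.19 (SE 0.397, adjusted p = 0.0489) was lost in 7 of 10 such fits. The fits without DEX_Load replicate 1, 3 or 4, without Vehicle_Load replicate 1, 2 or 5 or without the unnumbered library gave adjusted p-values from 0.0651 to 0.113. Il11ra1 overlaps Ccl27a on the opposite strand. Ccl28 had a mean of 0.304 and Ccl27a of 1.23 CPM per kb, against a background of up to 1.09 CPM per kb. With background as a covariate, Ccl28 had an adjusted p of 0.436 and Ccl27a turned to -0.26 (adjusted p = 0.872).

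**Figure D3:**
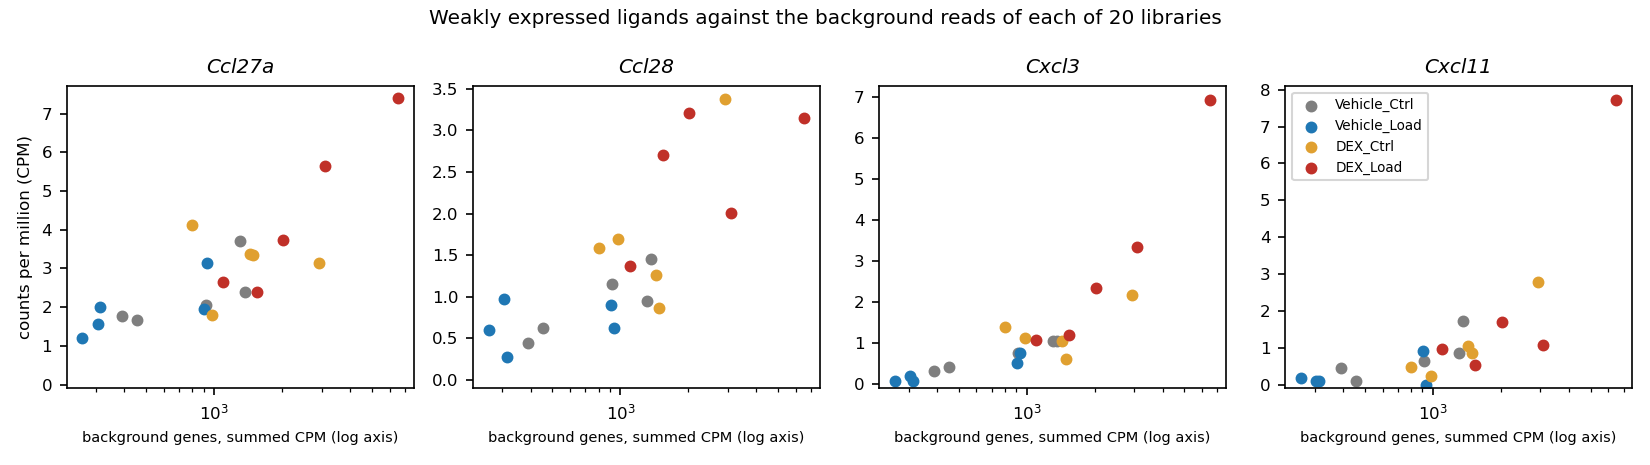
CPM of 4 weakly expressed ligands (vertical axes) against the summed CPM of 1965 background genes (log axis) in each of 20 libraries, coloured by group. DEX_Load replicate 4, with 6494 CPM of background, is the rightmost point in each panel and holds the highest value of Ccl27a (7.40 CPM), Cxcl3 (6.93 CPM) and Cxcl11 (7.72 CPM).

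The 13 members with means at or under 1.09 CPM per kb were also read as a group. Of these, 7 were tested in loaded tibiae, and all 7 had a log2 fold change over 0 (median 0.60), with 1 called. In unloaded tibiae 5 of 8 tested were over 0 (median 0.59), with none called. The 24 others had medians of -0.04 over 24 tested in loaded and -0.18 over 23 tested in unloaded tibiae. Of all genes tested, 50.3% and 53.3% were over 0 in loaded and unloaded tibiae. Some weak members passed the filter on low counts mainly through the DEX groups, which favours values over 0, so these counts and medians are descriptions only. The background reads were higher by median in both DEX groups, and their part in these values was not tested.

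**Figure D4:**
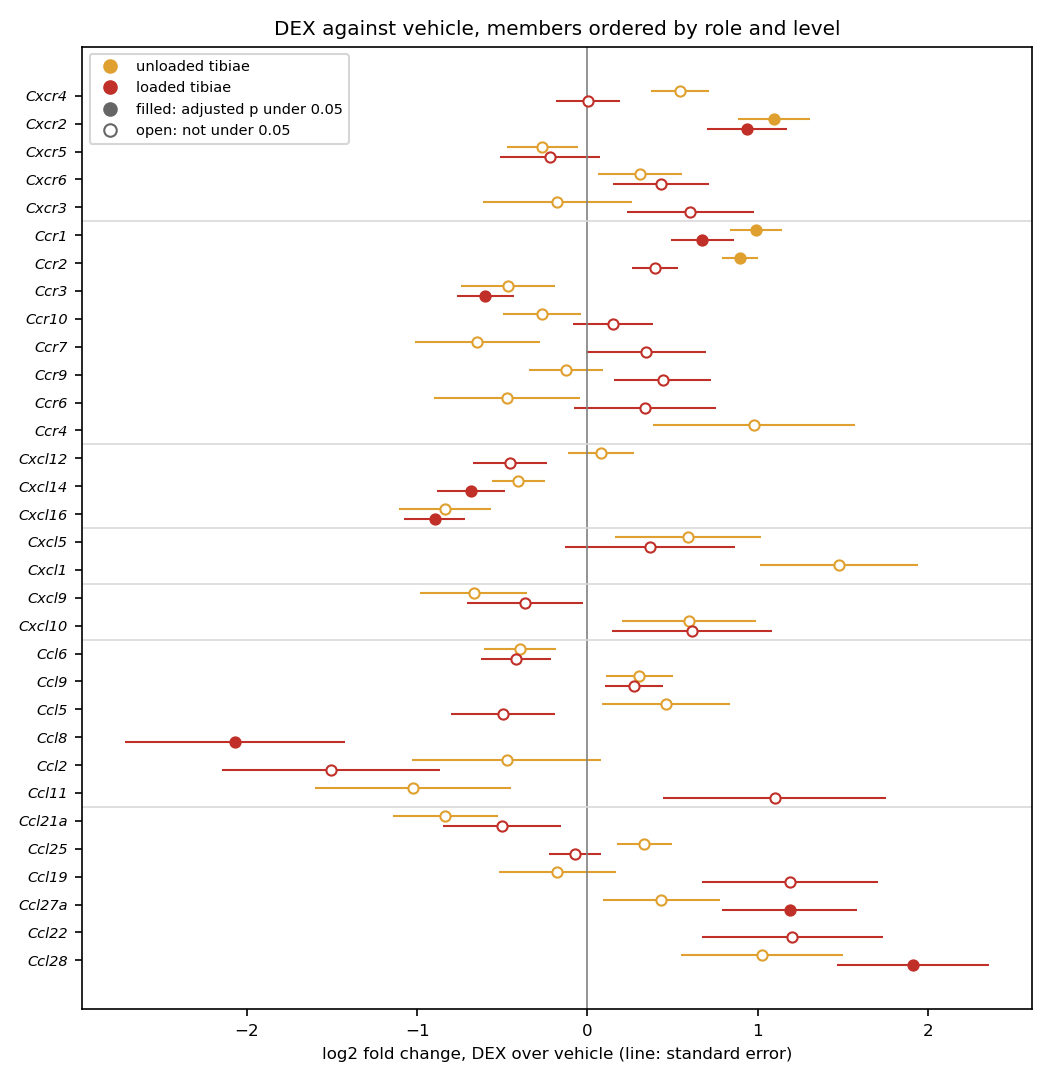
Log2 fold change of DEX over vehicle (horizontal axis) with its SE for members tested in unloaded and loaded tibiae, ordered by role and level, with filled points for adjusted p under 0.05 in edgeR. The filled points are Cxcr2, Ccr1 and Ccr2 to the right in unloaded tibiae. In loaded tibiae Cxcr2, Ccr1, Ccl27a and Ccl28 lie to the right and Ccr3, Cxcl16, Cxcl14 and Ccl8 to the left.

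Cxcr5, Cxcr3, Cxcl9 and Ccl5 did not pass under DEX. Cxcr5, the B cell follicle receptor, gave -0.26 (SE 0.206, adjusted p = 0.449) in unloaded and -0.22 (SE 0.293, adjusted p = 0.604) in loaded tibiae. Bcl9l overlaps Cxcr5 on the opposite strand. Over the same libraries 5 and 8 of 9 B lineage markers fell, where 3.99% and 8.35% of all genes did. Cxcr3, a receptor of activated T cells, gave -0.18 (SE 0.439, adjusted p = 0.833) and 0.60 (SE 0.373, adjusted p = 0.251), and none of 7 T cell markers passed in either tibia. Its interferon-inducible ligand Cxcl9 gave -0.67 (SE 0.313, adjusted p = 0.212) and -0.37 (SE 0.342, adjusted p = 0.451). Ccl5 gave 0.46 (SE 0.377, adjusted p = 0.473) and -0.50 (SE 0.305, adjusted p = 0.246).

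Other genes of the pathway were read from fixed lists. Of 12 further chemokine ligands and receptors tested, none passed in unloaded tibiae. In loaded tibiae Xcr1, a dendritic cell receptor, and Ackr2, a scavenger of CC ligands, were higher (1.99 and 1.44 on the log2 scale), and the ligand Cx3cl1 fell by 0.81. Xcr1 and Ackr2 averaged 1.18 and 3.00 CPM in Vehicle_Load. Of 14 genes that signal downstream of the receptors, 3 rose in unloaded tibiae, where 2.86% of all genes did: Arrb2, an arrestin (0.98), Rac2, a leukocyte GTPase (0.70), and Pik3cg, a lipid kinase (0.57). All 14 had a log2 fold change over 0 there, against 53.3% of all genes tested. None of the 14 passed in loaded tibiae. Several of these genes are used mainly by leukocytes, and 8 of 10 neutrophil markers rose in the same unloaded tibiae (median 1.05), a part that was not tested. With background reads as a covariate, 9 of the 14 were called higher there, in a fit that called 2657 of 19738 genes against 1351 without it. Of 10 cytokine and NF-kB feedback genes, Tnf rose in unloaded tibiae (1.198), and Nfkb2 and Relb fell in loaded tibiae (by 0.71 and 0.47). Of 10 interferon-stimulated genes, Isg15, Ifit1 and Irf7 fell in loaded tibiae (by 1.01, 1.201 and 0.60) and none passed in unloaded tibiae. Of all genes tested in loaded tibiae, 12.9% were called higher and 8.35% lower. With background reads as a covariate, no gene of these lists passed there. No gene of these lists passed with loading or in the interaction.

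The next comparison asked how loading changed the members under vehicle. None of 29 members tested passed with edgeR, as did 0% of 17982 genes, and DESeq2 called 143 genes (0.795%) and no member. At an unadjusted p under 0.05 edgeR found 4 members, all higher with loading: Ccl2, Ccl8, Ccr2 and Cxcl14 (13.8%, against 9.86% of all genes in either direction and 3.9% higher). Ccl8 passed the filter on low counts mainly through Vehicle_Load, the group where it was high, so it lends no support to that count. Ccl2, the main Ccr2 ligand, had 0.330, 0.928, 1.38, 1.93 and 2.30 CPM in Vehicle_Ctrl and 0.684, 1.94, 3.38, 6.29 and 9.66 CPM in Vehicle_Load. The highest values stood in Vehicle_Load replicate 1 and the unnumbered library, and the ranges overlapped (1.64, SE 0.625, adjusted p = 0.449). Ccl8 had 0, 0.220, 0.318, 0.530 and 1.36 CPM in Vehicle_Ctrl against the loaded values above (2.27, SE 0.697, adjusted p = 0.372). Ccl7, a ligand below the count minimum and chosen after its values were seen, had 35 counts in Vehicle_Load replicate 1, 22 in the unnumbered library and at most 5 in each other library. The 3 genes lie in the same stretch of chromosome 11, from 82035571 (start of Ccl2) to 82116799 (end of Ccl8) in GRCm38. Ccl11 and Ccl12 lie in it too and did not show this rise. Ccl11 reached 10 counts in 4 Vehicle_Ctrl and 3 Vehicle_Load libraries, and Ccl12 had at most 5 counts in any library.

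**Figure D5:**
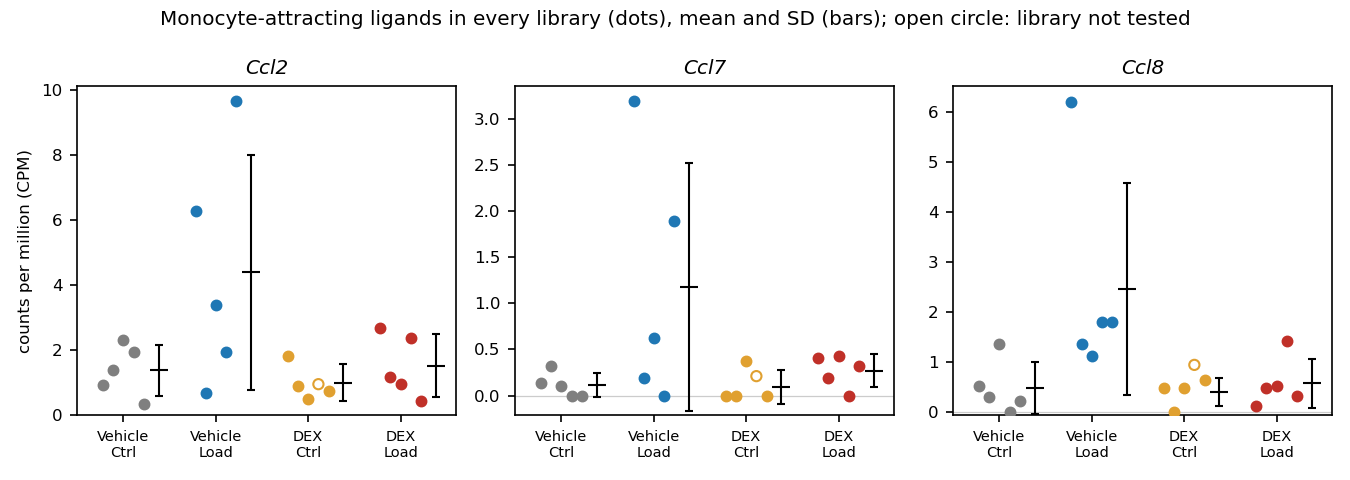
CPM of Ccl2, Ccl7 and Ccl8 (vertical axes) in every library, by group, with the mean and SD of the tested libraries as black bars and the untested DEX_Ctrl replicate 4 as an open circle. Vehicle_Load replicate 1 and the unnumbered library of that group hold the 2 highest values of Ccl2 (6.29 and 9.66 CPM) and of Ccl7 (3.19 and 1.90 CPM), and replicate 1 the highest of Ccl8 (6.20 CPM).

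Other members gave small differences with loading under vehicle. Ccr2 gave 0.23 (SE 0.103, adjusted p = 0.490) and Cxcl14 gave 0.44 (SE 0.158, adjusted p = 0.434). Cxcl12 gave 0.24 (SE 0.165, adjusted p = 0.625) and Cxcr4 gave 0.19 (SE 0.144, adjusted p = 0.651). Cxcr2 gave -0.03 (SE 0.157, adjusted p = 0.946) and Ccr1 gave 0.23 (SE 0.123, adjusted p = 0.547). Ccl5 gave 0.50, Cxcl9 and Cxcr3 gave -0.29 and 0.11, and Cxcr5 gave 0.26, none with an adjusted p under 0.05. The median over the 29 members was 0.11, against -0.00 over all genes.

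Under DEX, none of 34 members tested passed with loading, as did 0% of 22541 genes with edgeR and none with DESeq2. At an unadjusted p under 0.05 there were 2 members, Ccl19 and Ccl22, both higher, against 4.25% of all genes in either direction and 3.67% higher. Ccl22 reached 10 counts in 1 DEX_Ctrl library and in all 5 of DEX_Load, so it passed the filter on low counts through the group where it was high and lends no support to that count. Cxcr3 had 0.844, 1.12, 1.48 and 1.80 CPM in DEX_Ctrl and 1.82, 1.88, 2.17, 2.94 and 3.46 CPM in DEX_Load. It was the 1 member of 34 whose groups did not overlap with loading higher, against 0.652% of all genes, and it gave 0.85 (SE 0.411, adjusted p = 0.733). Ccr2 gave -0.28 (SE 0.175), Ccr1 -0.11 (SE 0.228), Cxcr2 -0.21 (SE 0.307) and Cxcr4 -0.37 (SE 0.239). Cxcl12 gave -0.31 (SE 0.278), Ccl5 -0.47 (SE 0.399), Cxcl9 -0.03 (SE 0.326) and Cxcr5 0.26 (SE 0.309). None of these passed. Ccl2 was not tested there.

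The last comparison asked whether the effect of loading differed between DEX and vehicle. None of 37 members tested passed, as did 0% of 23653 genes with edgeR, and DESeq2 called 50 genes (0.211%) and no member. At an unadjusted p under 0.05 there were 6 members, against 12.1% of all genes (8.92% positive, 3.17% negative): Ccl11, Ccl19, Cxcl3 and Cxcl11 with a positive and Ccl5 and Ccr2 with a negative difference. For Ccl5 it was -0.99 (SE 0.470, adjusted p = 0.411). Ccl11, Cxcl3 and Cxcl11 had their highest values, 6.61, 6.93 and 7.72 CPM, in DEX_Load replicate 4, the library with the most background. Cxcl3 and Cxcl11 reached 10 counts in 0 Vehicle_Load libraries and in 5 and 3 of DEX_Load. They passed the filter on low counts mainly through the DEX groups, where they were high, so they lend no support to that count. The differences were -1.09 for Ccl2 (SE 0.900), -1.90 for Ccl8 (adjusted p = 0.445), -0.56 for Cxcl12 (SE 0.306), -0.35 for Ccr1 (SE 0.250) and -0.19 for Cxcr2 (SE 0.346). They were 0.26 for Cxcl9 (SE 0.458), 0.74 for Cxcr3 (SE 0.553) and -0.00 for Cxcr5 (SE 0.372). The 4 comparisons of pairs of groups share libraries, so their values are given side by side only.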

How the data were processed

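RNA from tibiae was measured in 20 libraries. The deposited values are RSEM expected counts per gene, which the authors made from reads aligned to GRCm38 (STAR 2.7.10a and RSEM 1.2.28, per the submitters' processing notes). The strand setting of the counting is not given in the sources used here. Expected counts were rounded to whole numbers. Each comparison of a pair of groups was fitted on its own with edgeR 4.0.16 (R 4.3.3): filterByExpr, TMM scaling, the quasi-likelihood F test and Benjamini-Hochberg adjustment over all genes tested, with a threshold of 0.05. The interaction was fitted over the 4 groups. Standard errors were derived from the F statistic. DESeq2 1.42.0 and other settings served as alternatives. The study removed 1 DEX dataset numbered 4 without naming the tibia. Its plots show fewer values for unloaded than for loaded DEX tibiae, and DEX_Ctrl replicate 4 was left out of the tests on that ground. Whether this is the library that the study removed is uncertain. In both vehicle groups the table has a column whose number matches no label. These columns were used as unnumbered libraries of their groups. The fits were tested on simulated data.

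Members were all 55 symbols beginning with Ccl, Cxcl, Ccr or Cxcr and a digit. The 37 with at least 10 counts in at least 5 libraries were described. Members called by either tool, and those described from 7 marrow ligand and receptor pairs, are named with test values. Others are named by level or in counts. The values of 1 described member are not reported here. The members and gene lists were chosen with earlier results of these data known.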

Additional observations from a re-analysis of the deposited data

Results flagged for a closer look

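Among 68 groups of 4 or 5 libraries examined for the 17 members that were called by either tool or belong to the ligand and receptor pairs, 4 held a library far from the rest of its group, and chance alone sets apart about 1 in 20. Ccl8 had 6.20 CPM in Vehicle_Load replicate 1, against 1.13 to 1.81 CPM in the others. Cxcl16 had 21.7 CPM in Vehicle_Ctrl replicate 4, against 7.60 to 11.7 CPM, and 7.96 CPM in DEX_Ctrl replicate 5, against 6.39 to 6.53 CPM. Cxcr3 had 2.74 CPM in Vehicle_Load replicate 2, against 1.19 to 1.63 CPM.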

How the results depend on the processing

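No member was called for loading or for the interaction under any alternative run. For DEX in loaded tibiae, where 8 members were called, the number was 5 of 22 tested with at least 10 counts required in every library. It was 15 of 37 with all 4 groups in the same model. The shares of all genes are not given for these settings, so both counts describe the members only. With background reads as a covariate it was 0 of 31, where 31 of 19780 genes were called and Ccl27a turned to -0.26. Leaving out 1 library gave 4 (without DEX_Load replicate 3 or without Vehicle_Load replicate 1) to 10 (without Vehicle_Load replicate 4) members, while all genes called ran from 2696 to 5822 over these fits (4206 with every tested library). For DEX in unloaded tibiae, where 3 members were called, the number was 5 with DESeq2, where 12% of all genes were called. It was 5 with the background covariate (with Ccl25 and Cxcr4), in a fit that called 2657 of 19738 genes. With all 20 libraries it was 5 of 29 tested (with Cxcl1 and Cxcr4). With library totals, an alternative chosen after seeing the data, it was 6 of 31. The shares of all genes are not given for these last settings, so their counts describe the members only. Leaving out 1 library gave 2 (without DEX_Ctrl replicate 3) to 4 (without the unnumbered Vehicle_Ctrl library), and these fits also gave the lowest and highest counts of all genes, 129 and 1867 (1351 with every tested library). The cause was not tested, except that the covariate and DEX cannot be told apart in loaded tibiae. Of 61 single-gene results, 18 changed sign under an alternative, and 1 of these had been called (Ccl27a).

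The study used the right tibia of each mouse as its own control, but no label ties a replicate number to a mouse, and the numbers did not pair the libraries throughout. Correlations of same-numbered libraries ran from -0.301 to 0.246 between vehicle groups and from 0.0229 to 0.361 between DEX groups (3 of 4 over 0.1), and from -0.227 to 0.473 between loaded and -0.188 to 0.311 between unloaded groups. A library correlated best with its own number in 1 of 4 vehicle and 2 of 4 DEX pairs. With the replicate block no member was called for loading. With the replicate block, 0 members were called for DEX in loaded and 1 (Ccr2) in unloaded tibiae. The same numbered libraries without the block gave 1 and 2. Each mouse received either DEX or vehicle, so a number shared by those groups joins different mice. That block is therefore no paired test, and its counts are not set against all genes.

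At this depth, 18 of 55 members stayed under the count minimum and were not described.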
